A study of Mus musculus with 6 samples.

Results

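The 39 Hox genes are the members described here, taken by symbol from the 24411 genes measured in the Achilles tendon. Hox genes encode homeodomain transcription factors and lie in 4 chromosomal clusters, named HoxA to HoxD, in which genes of like position and descent form paralog groups numbered from 1 at the anterior end to 13 at the posterior end. Genes nearer the posterior end of a cluster are switched on later and further back along the body, so that the set a cell expresses records its position. In the limb the posterior groups are used again, with groups 9 and 10 marking the proximal, group 11 the middle and groups 12 and 13 the distal segment, and adult fibroblasts and tendon cells keep part of that pattern.

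Libraries of total RNA came from C57BL/6 mice aged 18 weeks, 3 of genotype WT and 3 of genotype Scx-Cre/Piezo1 GOF, written Piezo1 GOF below. Piezo1 encodes an ion channel opened by mechanical force, GOF stands for gain of function, and Scx is the gene of a tendon transcription factor, whose Cre driver acts in tendon-lineage cells. The RNA is that of whole tissue, so it also holds cells in which this Cre is not active. The labels do not say whether the WT mice carried the Cre or whether the samples came from separate animals, so p-values reflect only how much these samples vary, and that variation may be technical. Levels are given as CPM, a count relative to the size of its library after TMM scaling. Each fold change sets Piezo1 GOF against WT as a log2 value ± its standard error (SE), and adjusted p-values come from the quasi-likelihood test of edgeR with Benjamini-Hochberg adjustment over all 13466 genes tested.

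Total counts lay between 8131527 and 17180856 per library, of which the Hox genes together took 1060 to 2736 counts. As a check of the tissue, all 13 tenocyte markers were measurable, at a summed 5164 to 14969 CPM in WT and 29171 to 50701 CPM in Piezo1 GOF. Skeletal muscle markers, a list of 30 genes of which none was at 0, held 9.64%, 17.5% and 15% of the WT libraries, in replicate order, and 8.15%, 3.06% and 7.42% of the Piezo1 GOF libraries. The muscle share was lower in every mutant library, with WT replicate 1 and Piezo1 GOF replicate 1 the nearest pair across genotypes. The muscle score used below as a covariate, a mean of log2 values, overlapped between the genotypes, at 9.93 in WT replicate 1 and 10.02 in Piezo1 GOF replicate 1. In bulk tissue, fewer cells of a type and less RNA per cell cannot be told apart.

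The promoters of the HoxA genes on which the comparison below turns are shown first, as the 250 bases before each RefSeq start (GRCm38.p6, all on the minus strand and written 5′ to 3′ in the direction of transcription), with each CG dinucleotide in capitals. Hoxa10 has 2 listed starts. The listed start of Hoxa9 also lies inside the annotated gene, whose 5′ end is at 52231089, so its window is not the sequence upstream of the whole gene.
Hoxa11, chr6:52245811-52246060: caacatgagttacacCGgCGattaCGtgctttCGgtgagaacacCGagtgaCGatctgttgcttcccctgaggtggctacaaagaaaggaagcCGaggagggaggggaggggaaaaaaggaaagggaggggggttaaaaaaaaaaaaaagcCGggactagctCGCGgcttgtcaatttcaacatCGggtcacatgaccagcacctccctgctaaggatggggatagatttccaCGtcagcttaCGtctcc
Hoxa10, upstream start, chr6:52240855-52241104: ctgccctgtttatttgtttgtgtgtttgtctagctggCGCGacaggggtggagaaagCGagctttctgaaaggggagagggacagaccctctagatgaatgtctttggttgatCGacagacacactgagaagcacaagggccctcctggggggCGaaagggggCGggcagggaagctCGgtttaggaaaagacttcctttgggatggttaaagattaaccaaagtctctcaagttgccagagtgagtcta
Hoxa10, internal start, chr6:52234940-52235189: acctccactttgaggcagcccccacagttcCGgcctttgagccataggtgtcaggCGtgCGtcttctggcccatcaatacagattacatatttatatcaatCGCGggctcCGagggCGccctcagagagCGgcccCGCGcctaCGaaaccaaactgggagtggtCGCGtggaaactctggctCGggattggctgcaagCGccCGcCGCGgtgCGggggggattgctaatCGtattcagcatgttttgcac
Hoxa9, chr6:52227371-52227620: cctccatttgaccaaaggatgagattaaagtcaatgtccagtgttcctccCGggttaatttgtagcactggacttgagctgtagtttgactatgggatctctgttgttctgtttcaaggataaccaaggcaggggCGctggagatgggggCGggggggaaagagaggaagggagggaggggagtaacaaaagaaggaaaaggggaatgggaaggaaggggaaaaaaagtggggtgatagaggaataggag

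These windows held 13, 7, 20 and 3 CG dinucleotides in that order, against a median of 6 over all 32851 promoter windows of the same length, and the 24 windows listed for 22 of the Hox genes held 2 to 35 with a median of 12.5. Neither TGATTNAT, a composite site of a Hox protein and a cofactor, nor TTTATGG, a site of posterior Hox proteins, was found on either strand of the 4 sequences above, and none held TATAAA on the sense strand. Over all windows the shares with these words were 2.83%, 2.43% and 7.59%. Of the Hoxa11 window, 98 bases are also annotated as exon of Hoxa11os, a noncoding RNA transcribed from the opposite strand.

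The tendon libraries held transcripts of the middle and posterior parts of the HoxA, HoxC and HoxD clusters and little of HoxB. Of the 39 genes, 27 had at least 1 count in all 6 libraries, 9 in some and 3 in none. Hoxb1, Hoxb13 and Hoxd1 were the 3 without a count, which allows up to 0.192 to 0.390 CPM per library (3 counts, counting error only). All 10 genes of paralog groups 9 to 11 were detected in every library, as were 16 of the 23 genes of groups 1 to 8 but only 1 of the 6 genes of groups 12 and 13. That 1 was Hoxa13, a gene of the most distal limb segment, at 0.430, 2.17 and 1.13 CPM in WT and 2.6, 0.702 and 2.67 CPM in Piezo1 GOF. Its 2 groups overlapped. Its paralog group members Hoxc13 and Hoxd13 had 23 and 4 counts in all, and Hoxc12 and Hoxd12 had 2 and 1.

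**Figure D1:**
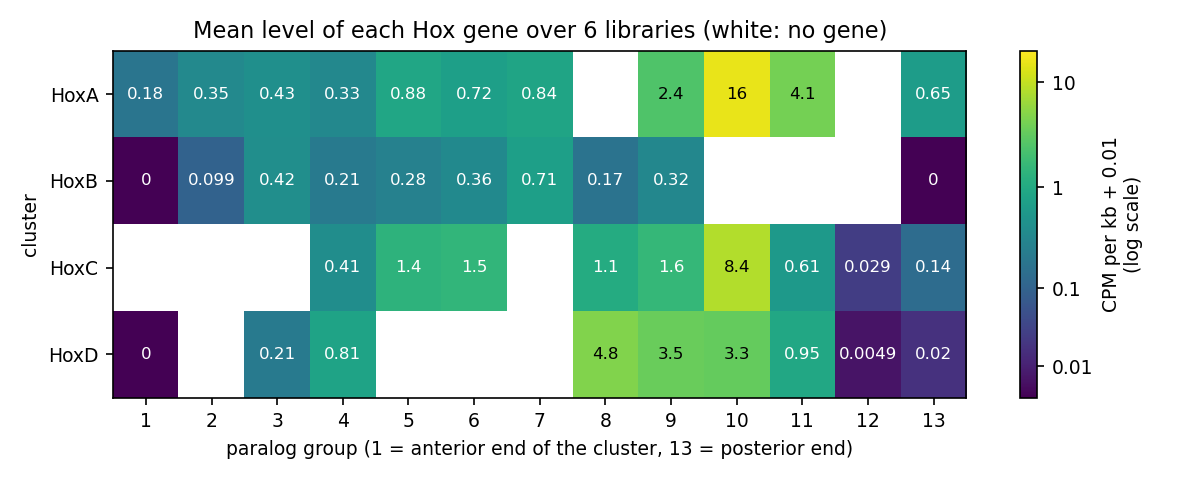
Mean level of each Hox gene over the 6 libraries as CPM per kb of merged exon (colour, log scale after adding 0.01; number in each cell), by cluster (rows) and paralog group (columns); white cells have no gene. The highest cells are Hoxa10 at 15.6 and Hoxc10 at 8.42, and the HoxB row stays below 1.

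Levels of different genes were compared per kb of exon. The leading genes were the paralogs Hoxa10 and Hoxc10, factors of the proximal limb. Their order by mean level per kb of merged exon differed between the genotypes. In WT, Hoxc10 stood at 9.80 ± 2.6 and Hoxa10 at 7.99 ± 2.24 CPM per kb (SD, n = 3), with overlapping ranges. WT replicate 1 had Hoxa10 above Hoxc10 (10.4 against 6.86 CPM per kb). Without division by length Hoxa10 led in WT too (26.1 against 18.7 CPM), so the WT order depended on the length scaling. In Piezo1 GOF, Hoxa10 stood at 23.3 ± 15 and Hoxc10 at 7.03 ± 1.67 CPM per kb, and Hoxa10 was above Hoxc10 in all 3 libraries. Hoxd8 was the third in WT at 4.27 ± 0.59 CPM per kb, followed by Hoxd10 (2.38), Hoxd9 (2.37), Hoxc6 (1.93), Hoxa11 (1.77) and Hoxa9 (1.60), and neighbours in that order after Hoxd8 overlapped. In Piezo1 GOF the third was Hoxa11 at 6.33 ± 1.44 CPM per kb, then Hoxd8 (5.24), Hoxd9 (4.56), Hoxd10 (4.32) and Hoxa9 (3.28), each overlapping the next. Over all 6 libraries Hoxa9 was at 2.44 CPM per kb of merged exon but at 4.21 per kb of its longest transcript, so its place depended on the length used. No HoxB gene exceeded the mean of 0.715 CPM per kb of Hoxb7. Paralog group 10 held 46.1% of the summed Hox level per kb on average and group 9 13.5%. Group 8 held 11.5% in WT and 9.76% in Piezo1 GOF. Group 11, that of the middle limb segment, held 5.85% to 7.54% in WT and 9.31% to 14.8% in Piezo1 GOF, without overlap. The chosen exon lengths come from GENCODE and may differ from the gene models the authors counted on.

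Within this pattern the balance between clusters differed by genotype. HoxA genes made up 41.7%, 30.3% and 28.3% of the summed Hox level per kb in WT, in replicate order, and 50.5%, 60.7% and 46.5% in Piezo1 GOF. HoxC genes made up 29.3%, 42.5% and 40.2% in WT and 25.9%, 12.2% and 22.9% in Piezo1 GOF. HoxB genes made up 5.57% to 6.46% in WT and 2.75% to 4.03% in Piezo1 GOF. These 3 shares did not overlap between the genotypes, HoxA being higher and HoxB and HoxC lower in every mutant library. The HoxD share overlapped (20.7% to 25.5% in WT, 19.6% to 26.8% in Piezo1 GOF). Shares of a total are bound together, so a higher HoxA share lowers the others. As levels, the sum over HoxA was 12.6 to 21.9 CPM per kb in WT and 25.5 to 56.8 in Piezo1 GOF, and that over HoxC was 15.4 to 18.4 and 11.4 to 14.9. The sum over HoxB was 2.7 to 2.9 CPM per kb in WT and 2.1 to 2.6 in Piezo1 GOF, a smaller difference than in its share. These sums are descriptions without a test.

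Gene by gene, no Hox gene passed the threshold over all genes by the quasi-likelihood test of edgeR. The 6 HoxA and HoxD genes of groups 9 to 11, a set formed with the values known, had positive log2 fold changes. Hoxd10 and Hoxd11 among them overlapped between the genotypes. Of the 7 tested HoxC genes, 5 had negative values. Of the 39, 21 had enough counts to be tested, 13 with positive and 8 with negative log2 fold changes. Their median was 0.30, against -0.0045 over all 13466 genes. The sign of that median depended on the members tested and on 1 library: it was -0.070 over 28 Hox genes with a count minimum of 5, -0.087 over the 36 with any count, and -0.069 over 25 without Piezo1 GOF replicate 2. By the quasi-likelihood test of edgeR 0 of 21 passed an adjusted p of 0.05, where the background over all genes was 0.0149%. The edgeR exact test and DESeq2 each called Hoxa10 and Hoxa11 (backgrounds 5.09% and 6.47%), and limma voom with sample weights called 0 (background 0.861%). Without the count filter edgeR called 1 (background 0.898%). At an unadjusted p under 0.05, 4 of 21 were higher and 0 lower in Piezo1 GOF, where all genes gave 10.2% and 9.59%, or 19.8% in either direction. The genotypes did not overlap for 4 higher and 3 lower members, where all genes gave 13.6% and 12.1%, or 25.6% in either direction. The 4 higher genes are the same by both counts, namely Hoxa9, Hoxa10, Hoxa11 and Hoxd9, and the 3 lower ones are Hoxc4, Hoxc6 and Hoxc11.

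**Figure D2:**
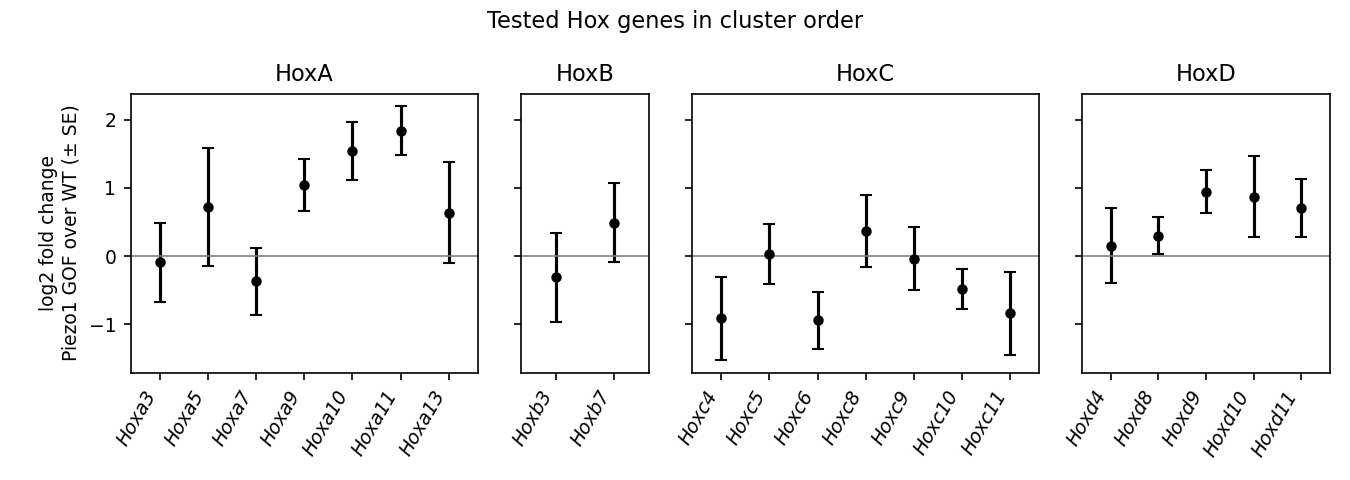
Log2 fold change of Piezo1 GOF over WT (points, with SE as bars) for the 21 tested Hox genes, in cluster order within each panel. In HoxA the values run from -0.37 at Hoxa7 to 1.84 at Hoxa11, and in HoxC 5 of 7 values lie below 0.

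Hoxa11, a determinant of the middle limb segment that is expressed in tendon and muscle connective tissue there, had the smallest p of the family. It was at 5.37, 2.62 and 4.19 CPM in WT replicates 1 to 3 and at 16.5, 16.3 and 10.7 CPM in Piezo1 GOF replicates 1 to 3. The groups did not overlap, the lowest mutant library being at 10.7 CPM and the highest WT library at 5.37. The log2 fold change was 1.84 ± 0.36, or 3.59-fold (edgeR adjusted p = 0.0863). Over the other settings tried it stayed between 1.51 and 2.12, with adjusted p from 8.03e-04 by DESeq2 to 0.514 with a muscle score (the mean log2 CPM of the 30 muscle markers) as a covariate, and without WT replicate 1 it passed by edgeR (adjusted p = 0.0447, background 1.65%).

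Counts of Hoxa11 were shared with its antisense partner. Hoxa11 (ENSMUSG00000038210.10) occupies chr6:52242106-52245810 of mm10 on the minus strand, and 800 exonic bases overlap Hoxa11os on the plus strand. The expected counts of the pair were not whole in any library, such as 49.68 and 29.32 in WT replicate 1, yet their sums were whole in 6 of 6 libraries (79, 97 and 60 in WT, 186, 285 and 200 in Piezo1 GOF, tolerance 0.011). This is the pattern of reads divided between the pair, so the value of each alone is uncertain. Hoxa11os was at 3.11, 3.58 and 2.6 CPM in WT and 7.67, 12.3 and 4.15 CPM in the mutants (log2 fold change 1.37 ± 0.45, edgeR adjusted p = 0.178). Summed as 1 feature, a choice made after seeing the data, the pair was at 8.48, 6.20 and 6.79 CPM in WT and 24.2, 28.6 and 14.8 CPM in Piezo1 GOF (1.65 ± 0.31, edgeR adjusted p = 0.0667). Both the sum and each partner lay higher in every mutant library.

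Hoxa10 (ENSMUSG00000000938.11, chromosome 6 at 52231197 to 52240854) was at 33.9, 19.4 and 25.0 CPM in WT and at 52.1, 132 and 43.6 CPM in Piezo1 GOF. All 3 mutant libraries were above all WT libraries, with Piezo1 GOF replicate 2 far above the other two. The log2 fold change was 1.54 ± 0.43 (edgeR adjusted p = 0.143), and 0.90 ± 0.27 without Piezo1 GOF replicate 2 (adjusted p = 0.337). With the muscle covariate it was 0.49 ± 0.27, in a fit where genotype and score vary together.

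Hoxa9 (chromosome 6 at 52223100 to 52231089), which lies next to Hoxa10 and acts with it in patterning the posterior body and proximal limb, was at 11.2, 7.86 and 7.69 CPM in WT and at 11.4, 29.1 and 14.3 CPM in Piezo1 GOF. The groups only just separated, since WT replicate 1 and Piezo1 GOF replicate 1 were nearly level. The log2 fold change of 1.04 ± 0.38 (edgeR adjusted p = 0.197) was 0.56 ± 0.30 without Piezo1 GOF replicate 2 and 0.21 ± 0.33 with the muscle covariate.

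Hoxd9 (chromosome 2, plus strand, 74697727 to 74700208), a gene of the proximal limb, was at 4.73, 4.92 and 5.54 CPM in WT and at 9.23, 12.4 and 7.56 CPM in Piezo1 GOF. Its WT libraries were close together and all mutant libraries lay above them. The log2 fold change was 0.94 ± 0.32 (edgeR adjusted p = 0.180), and 0.66 ± 0.40 with the muscle covariate.

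Hoxd10, Hoxd11 and Hoxd8 had positive values with overlapping groups. Hoxd10, a paralog of Hoxa10, was at 6.23, 2.11 and 4.64 CPM in WT and 3.38, 14.3 and 5.78 CPM in Piezo1 GOF, where replicate 2 alone exceeded the WT range (log2 fold change 0.87 ± 0.59, edgeR adjusted p = 0.433). Without that library it was 0.13 ± 0.55. With the muscle covariate its value was -0.57 ± 0.42. Hoxd11, the partner of Hoxa11 in the middle limb segment, went from 2.36 to 3.96 CPM in WT and from 3.38 to 5.92 CPM in Piezo1 GOF (0.71 ± 0.43, edgeR adjusted p = 0.375). Hoxd8, the third in level per kb, was at 13.5, 10.4 and 11.2 CPM in WT and 10.3, 17.2 and 15.7 CPM in Piezo1 GOF (0.30 ± 0.28, edgeR adjusted p = 0.567). All 6 HoxA and HoxD genes of groups 9 to 11 were positive, with a median of 0.99. This set was formed with the values known and leaves out the HoxC genes. Of all 9 tested genes of groups 9 to 11, 6 were positive and 3 negative, with a median of 0.87. Over all genes 49.7% were positive.

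**Figure D3:**
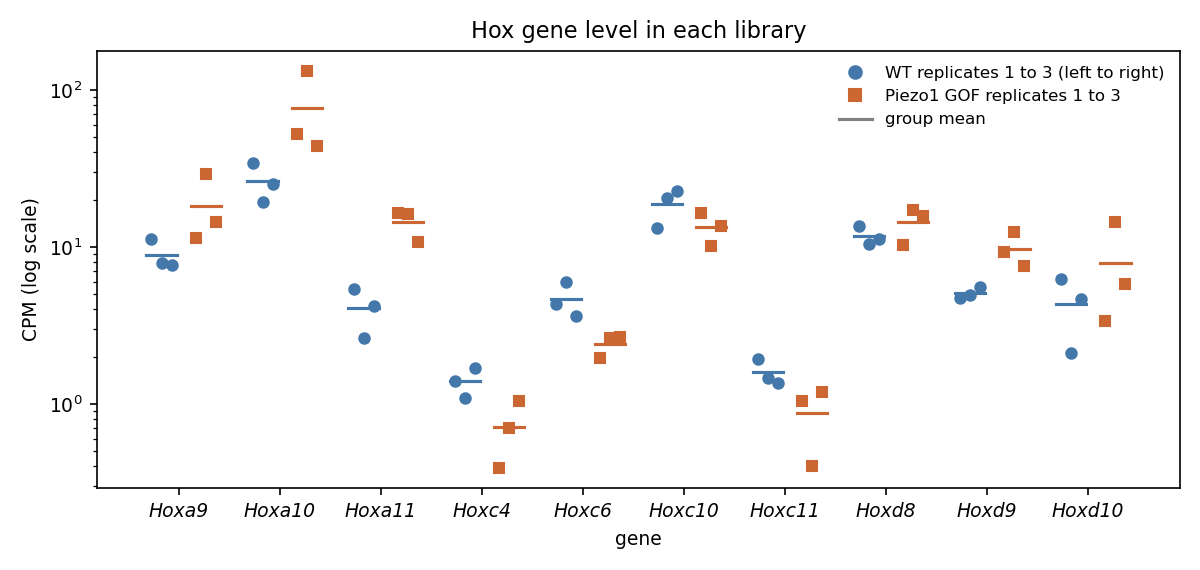
Level (CPM, log axis) of 10 Hox genes in each WT library (circles) and each Piezo1 GOF library (squares), with lines at the group means. Hoxa9, Hoxa10, Hoxa11 and Hoxd9 lie higher in every mutant library, and Hoxc4, Hoxc6 and Hoxc11 lower.

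HoxC genes did not share the higher values. Of 7 tested, 5 were negative and 2 positive, with a median of -0.48. Hoxc10 (ENSMUSG00000022484.7, chromosome 15 at 102966796 to 102971893), which in the embryo is a hindlimb rather than forelimb gene, was at 13.1, 20.5 and 22.5 CPM in WT and 16.5, 10.1 and 13.6 CPM in Piezo1 GOF. The groups overlapped (log2 fold change -0.48 ± 0.29, edgeR adjusted p = 0.382), and the value was -0.04 ± 0.32 with the muscle covariate. Hoxc6, a gene of more anterior position, was at 4.30, 6.00 and 3.62 CPM in WT and 1.95, 2.61 and 2.67 CPM in Piezo1 GOF, with no overlap (-0.94 ± 0.42, edgeR adjusted p = 0.258).

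Hoxc11 and Hoxc4 were near the lowest level that could be tested. Hoxc11 was at 1.93, 1.47 and 1.36 CPM in WT and 1.04, 0.401 and 1.19 CPM in Piezo1 GOF (-0.84 ± 0.61, edgeR adjusted p = 0.462). Hoxc4 was at 1.40, 1.09 and 1.70 CPM in WT and 0.390, 0.702 and 1.04 CPM in Piezo1 GOF (-0.91 ± 0.61, edgeR adjusted p = 0.427). Both lay lower in every mutant library, with a wide SE. The remaining HoxC genes had overlapping groups, at -0.04 ± 0.46 for Hoxc9, 0.03 ± 0.44 for Hoxc5 and 0.36 ± 0.53 for Hoxc8. Although Hoxc5 shares 166 exonic bases with Hoxc10 in the annotation, both had whole counts in every library.

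The ratio of 2 paralogs within a library does not depend on how libraries are scaled. Of 4 pairs compared, chosen after the values were seen, Hoxa11 to Hoxc11 gave 2.78, 1.78 and 3.08 in WT and 15.9, 40.5 and 9 in Piezo1 GOF. The mutant ratios rest on Hoxc11 counts of 8, 4 and 16, and the Hoxa11 counts are uncertain because of Hoxa11os. Hoxa10 to Hoxc10 gave 2.59, 0.947 and 1.11 in WT and 3.16, 13.1 and 3.2 in Piezo1 GOF. Both ratios were higher in every mutant library, which for Hoxa11 to Hoxc11 follows from the values of the 2 genes already given. Hoxa10 to Hoxd10 (5.39 to 9.21 in WT, 7.54 to 15.4 in Piezo1 GOF) and Hoxa9 to Hoxc9 (1.84 to 2.74, 2 to 8.53) overlapped between genotypes. Since the pairs were chosen for their values, these ratios are descriptions without a test.

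Anterior members were few in counts. Hoxd3 did not pass the count filter and is named because of its values. It was at 2.04, 0.639 and 1.81 CPM in WT and 0.520, 0.10 and 0.222 CPM in Piezo1 GOF, lower in every mutant library, with a log2 fold change of -2.41 ± 0.99 when all genes were fitted (edgeR adjusted p = 0.242). Hoxd3 shares 388 exonic bases with Hoxd4, which was at 1.72, 1.92 and 3.17 CPM in WT and 1.43, 4.01 and 2.08 CPM in Piezo1 GOF (0.16 ± 0.55), though both had whole counts in every library. The 2 tested HoxB genes, Hoxb3 (-0.31 ± 0.65) and Hoxb7 (0.49 ± 0.58), had overlapping groups, as did Hoxa3 (-0.09 ± 0.58), Hoxa5 (0.72 ± 0.87), Hoxa7 (-0.37 ± 0.49) and Hoxa13 (0.64 ± 0.74). The other 17 untested members had 0 to 58 counts in all libraries together.

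Muscle content also differed between the genotypes, and some Hox values followed it across libraries while others did not. Across the 6 libraries Hoxa10 was highest in Piezo1 GOF replicate 2, which had the least muscle (3.06% of counts), and lowest in WT replicate 2, which had the most (17.5%), and Hoxa11 was also lowest there. Hoxc10 had its lowest value in Piezo1 GOF replicate 2. Hoxa11 was highest and Hoxc6 lowest in Piezo1 GOF replicate 1, the mutant library with the most muscle. Hoxd9 was highest in Piezo1 GOF replicate 2 but lowest in WT replicate 1, the WT library with the least muscle. In the pair of WT and mutant libraries with the nearest muscle share, WT replicate 1 at 9.64% and Piezo1 GOF replicate 1 at 8.15%, Hoxa11 stood at 5.37 against 16.5 CPM, Hoxd9 at 4.73 against 9.23, Hoxa10 at 33.9 against 52.1, Hoxc6 at 4.30 against 1.95, and Hoxa9 at 11.2 against 11.4. In the same pair Hoxc10 (13.1 against 16.5 CPM), Hoxd8 (13.5 against 10.3) and Hoxd10 (6.23 against 3.38) differed in the direction opposite to their group means. The pair is the nearest by muscle share alone. Schwann cell and nerve markers summed to 3548 against 515 CPM in it, and smooth muscle and pericyte markers to 4629 against 1014. The other WT libraries were at 165 and 245 CPM for the former and at 1436 and 1268 CPM for the latter. With the muscle score as a covariate, 2 of 21 Hox genes had an unadjusted p under 0.05, beside 6.65% of all genes. They were Hoxa11 (1.51 ± 0.40, edgeR adjusted p = 0.514) and Hoxa13 (2.22 ± 0.74, edgeR adjusted p = 0.649), both higher. Markers of several other cell types also differed. Bone markers summed to 91.8 to 408 CPM in WT and 1716 to 3227 CPM in Piezo1 GOF, and cartilage markers to 649 to 3748 and 7464 to 21310 CPM, with 12 of 13 tenocyte markers positive. There were 14 of 14 macrophage markers positive (summed 184 to 286 CPM in WT, 678 to 846 in Piezo1 GOF), 9 of 12 fibroblast and sheath markers positive (781 to 3304 and 3943 to 6332 CPM) and 9 of 10 endothelial markers negative (960 to 1563 and 590 to 896 CPM). Their part in the Hox values was not tested.

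**Figure D4:**
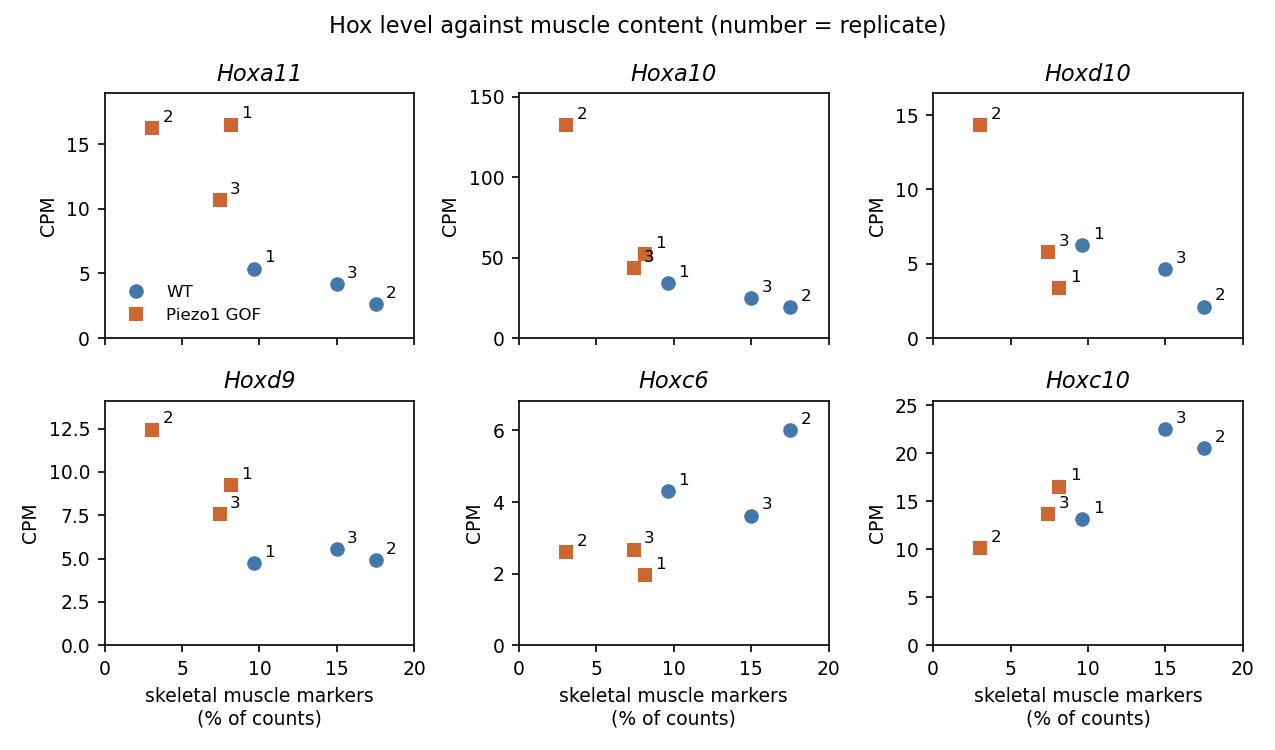
Level of 6 Hox genes (CPM) against the percent of all counts that fell on 30 skeletal muscle genes in each library, numbered by replicate. Hoxa10, Hoxd9 and Hoxd10 are highest in the library with the least muscle, and Hoxa10, Hoxa11 and Hoxd9 are higher in all mutant libraries.

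The limb-type factor detected at testable counts in both genotypes was the hindlimb one. Tbx4 and Tbx5 are named for this contrast and were chosen after their values were seen. Tbx4, the T-box factor of the hindlimb, was at 12.4, 11.1 and 14.7 CPM in WT and 15.2, 22.9 and 12.7 CPM in the mutants (log2 fold change 0.41 ± 0.29, edgeR adjusted p = 0.439). Its forelimb counterpart Tbx5, with 41 counts in all, was not tested and stood at 0.215, 0.255 and 0 CPM in WT and 1.82, 0.502 and 1.19 CPM in Piezo1 GOF. Per kb of exon the means were 4.36 CPM for Tbx4 and 0.142 CPM for Tbx5. Pitx1, which directs hindlimb identity upstream of Tbx4, was at 4.73, 3.39 and 6.90 CPM in WT and 14.6, 18.5 and 6.67 CPM in Piezo1 GOF, with the lowest mutant library inside the WT range (1.41 ± 0.44, edgeR adjusted p = 0.167).

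Of 23 limb-type and limb axis factors, 17 were tested and 0 passed over all genes, while at an unadjusted p under 0.05 there were 7 higher and 2 lower, beside 10.2% and 9.59% of all genes. Isl1, a LIM homeodomain factor that starts the hindlimb programme, was at 9.13, 8.11 and 10.1 CPM in WT and 28.9, 43.5 and 20.8 CPM in Piezo1 GOF. The groups lay well apart, with a log2 fold change of 1.77 ± 0.30 (edgeR adjusted p = 0.0572). Twist1, a mesenchymal bHLH factor, was at 10.7 to 19.2 CPM in WT and 34.0 to 86.4 CPM in Piezo1 GOF (1.79 ± 0.40, edgeR adjusted p = 0.104). Prrx2 (1.51 ± 0.48) and Shox2 (1.28 ± 0.51), homeobox genes of limb mesenchyme, Hand2 (1.18 ± 0.44), which patterns the posterior limb margin, and the Hedgehog pathway factor Gli3 (0.63 ± 0.25) were the others, each without overlap. En1, a marker of ventral limb ectoderm, was lower at 6.55, 8.88 and 10.3 CPM in WT and 4.29, 3.21 and 2.15 CPM in Piezo1 GOF (-1.43 ± 0.39, edgeR adjusted p = 0.139), and so was Tbx3 (-0.71 ± 0.21, edgeR adjusted p = 0.157).

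**Figure D5:**
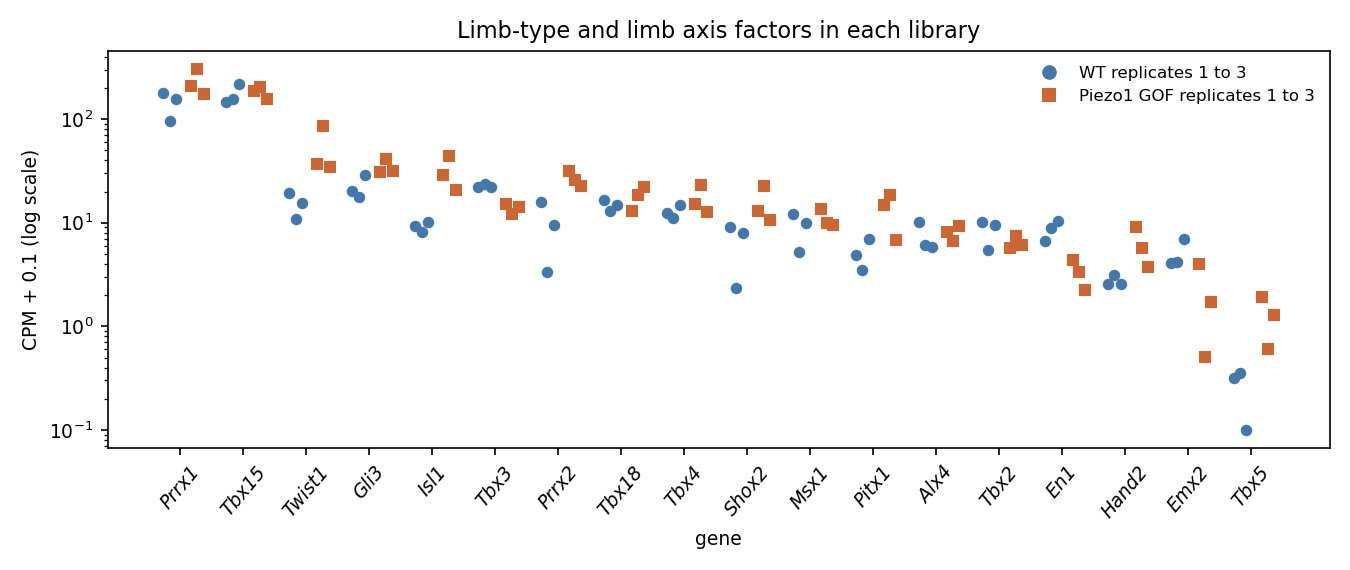
Level (CPM + 0.1, log axis) of 17 tested limb-type and limb axis factors and of Tbx5, which was not tested, in each WT (circles) and Piezo1 GOF (squares) library, ordered by mean level. Tbx4 lies far above Tbx5 in both genotypes, and Isl1 and Twist1 are higher in every mutant library.

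No Hox cofactor or chromatin regulator listed passed the threshold over all genes. Hox proteins bind DNA together with TALE homeodomain proteins, and of 9 such genes 8 were tested, with a median log2 fold change of -0.10 and 0 at an unadjusted p under 0.05. Meis1 (-0.53 ± 0.31) and Meis3 (0.55 ± 0.35), named after their values were seen, were the 2 of 8 whose groups did not overlap, beside 25.6% of all genes. The shares of all genes at an unadjusted p under 0.05 were 19.8% in either direction and 9.59% lower. Polycomb proteins keep Hox genes silent, and of 22 tested the median was -0.08 and 1, Bmi1, had an unadjusted p under 0.05 (-0.59 ± 0.21, edgeR adjusted p = 0.197). Trithorax proteins and H3K27 demethylases keep them active. Their list of 11 tested genes also holds Ctcf (-0.04 ± 0.21), named here because it is of neither kind. Of the 11, 10 were negative and 1 positive, where 6775 of all 13466 genes were negative. The median was -0.13, with 0 at an unadjusted p under 0.05 and Kmt2a at -0.27 ± 0.24.

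Noncoding RNAs of the clusters and genes flanking them were also listed. Of 23 noncoding RNAs of the clusters, 18 were in the table and 3 were tested. Besides Hoxa11os these were Hotair, made from the HoxC cluster, at 2.47, 0.894 and 2.6 CPM in WT and 1.56, 2.41 and 2.59 CPM in Piezo1 GOF (0.17 ± 0.57), and Mira (-0.67 ± 0.48). The miRNA genes Mir10a, Mir10b, Mir196a-1, Mir196a-2 and Mir615 were at 0 in all libraries. Of 10 tested genes that flank the clusters, 3 reached an unadjusted p under 0.05, all of them lower in Piezo1 GOF, beside 9.59% of all genes lower, while 4 of the 10 had positive values. Hibadh beside HoxA, a valine catabolism enzyme gene, was at 62.2, 73.9 and 62.0 CPM in WT and 46.8, 33.9 and 39 CPM in Piezo1 GOF (-0.73 ± 0.21, edgeR adjusted p = 0.146). Calcoco1 beside HoxC (-0.79 ± 0.27) and Mtx2 beside HoxD (-0.54 ± 0.22) were also lower in every mutant library.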

How the data were processed

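RNA was measured in 6 Achilles tendon libraries made with the GenNext RamDA-seq kit, per the labels' protocols. The authors deposited expected counts, which carry no depth or length scaling. The submitters' processing notes name STAR, RSEM, bcl2fastq and edgeR, without versions or roles, and the build mm10. Annotation and strand setting were not given in the sources used here.

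Expected counts were rounded, filtered with filterByExpr (minimum count 10), scaled by TMM and tested two-sided with edgeR's quasi-likelihood test without covariates (common dispersion 0.113). The SE of a fold change was derived from the F statistic. Of the symbols, 95.6% had a single match in GENCODE release M21, which gave coordinates and merged exon lengths. On simulated counts for 13466 genes with 50 altered genes at each size, the fit called 16% at 2-fold, 86% at 4-fold and 96% at 8-fold. It also made 18 false calls there, and 0 calls on counts simulated without altered genes. The altered genes were drawn at random from all genes tested, and no difference in muscle content was simulated. These rates therefore do not carry over to the Hox genes. Replicates differed beyond sampling noise (chi-square per degree of freedom 33.3 to 113).

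Named Hox genes have a mean of at least 5 CPM, an unadjusted p under 0.05 or groups that do not overlap, and named list members an unadjusted p under 0.05 or 1 of the 3 highest CPM values of their list, with exceptions said in the text. Members, lists and rules were chosen with earlier results of these data known. The 19 lists hold 251 entries, 242 in the table; besides those reported, the median log2 fold changes were -1.17 (skeletal muscle), -1.11 (myogenic factors), 1.74 (tenocyte), 0.66 (fibroblast and sheath), 1.69 (cartilage), 1.93 (bone), 1.65 (macrophage), -0.44 (endothelial), -1.00 (smooth muscle and pericyte), 1.03 (adipocyte), -2.12 (Schwann cell and nerve), -1.16 (keratinocyte and skin) and 1.22 (erythroid). The summed Schwann cell and nerve markers overlapped, at 3548, 165 and 245 CPM in WT and 515, 603 and 458 CPM in Piezo1 GOF. WT replicate 1 alone stood above the mutant libraries. Sums of the adipocyte, the keratinocyte and skin, and the erythroid markers also overlapped between the genotypes. Alternatives were other scalings, filters, tools, covariates and leaving out each library. The values of 1 cofactor gene are not reported here. Software was R 4.3.3, edgeR 4.0.16, limma 3.58.1, DESeq2 1.42.0 and Python 3.11.15.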

Additional observations from a re-analysis of the deposited data

How the results depend on the processing

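The 20 alternatives (19 for Hoxc4 and Hoxc11, which were not tested at a minimum count of 20) left the sign of the 10 named Hox genes as it was, except that Hoxd8 (-0.049) and Hoxd10 (-0.57) turned negative with the muscle covariate. The count of Hox genes called by the quasi-likelihood test of edgeR was 0 with all libraries and a count filter. It was 1 without the count filter (Hoxa11), 2 by DESeq2, 2 by the exact test, and 0 to 1 when a library was left out, the 1 being Hoxa11 without WT replicate 1. Over all genes the count of 2 became 0 without scaling factors or with the muscle covariate, 165 without the filter, 891 by DESeq2, 116 by limma voom and 685 by the exact test, and ran from 0 to 228 when a library was left out. The median log2 fold change of the tested Hox genes was -0.087 without the filter, -0.070 with a minimum count of 5 and -0.049 with the muscle covariate (the cause was not tested), and ran from -0.069 (Piezo1 GOF replicate 2) to 0.44 without 1 library. The number of tested members differs between these fits. With at least 10 counts in all libraries as the limit of detection, 16 Hox genes counted as detected in place of 27. Without division by length, group 9 held 16.1% of the summed Hox level. With the replicate number as a block 0 genes were called over all genes and 0 Hox genes, and the numbers did not pair the libraries, since deviations of same-numbered libraries correlated at -0.21, -0.14 and -0.05. Depth limits the anterior and the most distal members, most of which had under 10 counts in some library.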
